A study of Caenorhabditis elegans with 2 samples.

Results

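Aminoacyl tRNA synthetase genes were taken as the protein-coding genes whose name is 1 letter followed by ars-1 or ars-2 in the Ensembl annotation of Caenorhabditis elegans, which gave 31 of 19973 protein-coding genes on the nuclear chromosomes. By what is known of the enzymes, 14 of the 31 encode cytosolic and 12 encode mitochondrial synthetases. The other 5 (cars-1, gars-1, hars-1, kars-1 and tars-1) were not assigned to 1 compartment. The cytosolic valyl-tRNA synthetase gene is listed as glp-4 in this annotation, so it is not among the 31, and neither is fars-3, which encodes the beta subunit of the cytosolic phenylalanyl-tRNA synthetase. Both are described with the related genes.

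A synthetase joins an amino acid to its matching tRNA, and the charged tRNA then delivers that amino acid to the ribosome. Nuclear genes encode the enzymes of the cytosol and those of the mitochondrion. For most amino acids the worm has a separate gene for each compartment. LIN-54 is a DNA-binding subunit of DREAM, a complex with Rb-like and E2F proteins best known as a repressor of cell cycle genes. The element it contacts, found at many such genes, is called CHR, for cell cycle genes homology region.

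LIN-54 binding was mapped by chromatin immunoprecipitation and sequencing with an anti-GFP antibody in whole young adults, 65 hours old and of mixed sex. The worms were of strain OP743, which is unc-119(tm4063) and carries the insertion wgIs743, a fosmid with lin-54::TY1::EGFP::3xFLAG together with unc-119(+). The labels name no change at the worm's own lin-54 gene, and the values come from all tissues of the animal together. All animals carried the transgene, and 2 biological replicates form the only group, so there is no contrast between conditions.

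Replicate 1, replicate 2 and their pool each have a deposited list of 30000 regions, and a further list holds the 3449 peaks that passed the irreproducible discovery rate (IDR) procedure. The signal is the peak caller's own value for a region, without a physical unit, and it ranks regions within a list. It ran from 98.2 to 7882 in the IDR list, in which rank 1 is the strongest peak. Read depth is unknown. The promoter window of a gene ran between 1000 bp upstream and 300 bp downstream of any of its annotated 5′ ends, and a promoter peak is an IDR peak with its summit in it. Positions are given from the nearest 5′ end of the gene, negative being upstream.

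LIN-54 peaks lay at a minority of the synthetase promoters, the strongest of them at rank 437 of the 3449 IDR peaks. Of the 31 genes, 12 carried a promoter peak (38.7%, Wilson 95% interval 23.7% to 56.2%), against 14.3% of all protein-coding genes. None of the 31 lies on X, and on the autosomes alone the share of all genes was 16.0%. The strongest peak per bound synthetase gene had signals from 99.5 to 465, with a median of 187, while the median over all 2859 genes with a promoter peak was 222 and the median over all IDR peaks was 177. Of the 12 bound genes, 6 had a peak in the stronger part of the list, ranks 1 to 1724 (19.4% of the 31). Over all genes, 1777 of the 2859 with a promoter peak had one there (8.9% of all genes). Where any pooled region was counted, also those below the IDR list, 29 of the 31 synthetase genes had a summit in the window (93.5%), against 38.0% of all genes. Among genes with such a region, 41.4% of the synthetase genes and 37.7% of all genes had an IDR peak, so by that count the synthetases were close to the background. These shares are counts over genes, and no test was run on them.

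**Figure D1:**
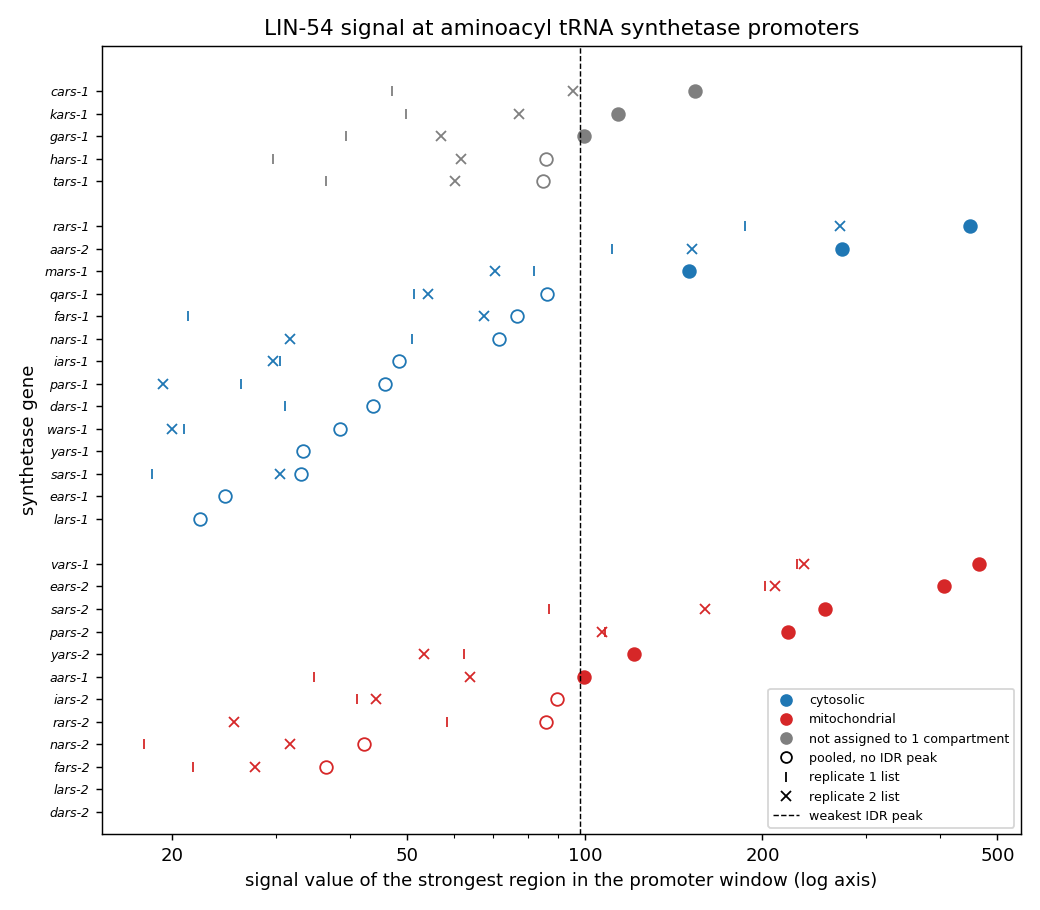
Signal value (log axis) of the strongest region in the promoter window of each of the 31 synthetase genes, by compartment. Circles are the pooled list, filled where the gene had an IDR peak, and bars and crosses are the strongest region in the window in the replicate 1 and replicate 2 lists. The dashed line is the weakest IDR peak (98.2), and lars-2 and dars-2 had no region.

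The mitochondrial synthetase genes carried promoter peaks more often than the cytosolic ones in number, at 6 of 12 (50%, 25.4% to 74.6%) against 3 of 14 (21.4%, 7.57% to 47.6%). The share of all genes was 14.3%. The intervals overlap and the difference was not tested. With peaks in the window of 1 gene only, the mitochondrial count fell to 3 of 12 and the cytosolic count to 2 of 14, against 6.85% of all genes, and without replicate 1 the cytosolic count was 5 of 14 (35.7%). Of the genes not assigned to 1 compartment, 3 of 5 had a peak. The median signal of the strongest pooled region was 110 over the 10 mitochondrial genes that had a region and 47.2 over the 14 cytosolic genes. The corresponding median percentiles among all 7591 genes with a region were 65.6 and 33.6. By enzyme class, which sorts synthetases by the fold of the catalytic core, 6 of 15 class I genes and 6 of 16 class II genes had a peak.

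Examples of the synthetase peaks are shown first by their sequence. Not all of them are strong, and the gars-1 peak had the lowest signal of any synthetase peak (99.5). Each line gives the reference sequence of build WBcel235 (ce11) from 50 bp before to 50 bp after the summit, on the plus strand, for the 3 highest signals among all 31 genes and for 1 peak each with CHR and E2F matches. Capitals mark matches to the CHR words TTCGAA and TTTGAA or to the E2F words TTCCCGC or TTCGCGC or TTGCCGC or TTGGCGC, searched on both strands, so that TTCAAA is TTTGAA on the minus strand.
vars-1, chrV:8031298-8031398, no match: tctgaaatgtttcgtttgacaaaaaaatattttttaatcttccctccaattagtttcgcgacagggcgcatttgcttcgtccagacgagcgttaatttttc
rars-1, upstream peak, chrIII:4918099-4918199, CHR: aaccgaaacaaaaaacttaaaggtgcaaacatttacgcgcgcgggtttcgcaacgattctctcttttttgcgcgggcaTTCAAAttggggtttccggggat
ears-2, chrIV:390426-390526, no match: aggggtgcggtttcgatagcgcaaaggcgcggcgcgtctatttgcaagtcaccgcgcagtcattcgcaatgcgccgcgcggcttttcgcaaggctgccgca
sars-2, chrIV:4357423-4357523, CHR: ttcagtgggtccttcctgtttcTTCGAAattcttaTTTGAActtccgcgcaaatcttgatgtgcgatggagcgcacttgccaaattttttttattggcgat
gars-1, chrIII:5162429-5162529, E2F: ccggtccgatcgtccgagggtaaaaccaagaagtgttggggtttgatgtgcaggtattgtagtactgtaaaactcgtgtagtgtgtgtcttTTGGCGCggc

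The highest signal was that of vars-1, the mitochondrial valyl-tRNA synthetase gene, on chromosome V. Its peak (8031171 to 8031475) had a signal of 465 in the pooled list, at rank 437, with 229 in replicate 1 (rank 434) and 235 in replicate 2 (rank 441). The replicates placed it almost identically in rank, and their summits lay 0 and -1 bp from the pooled summit. The summit lay at -63 bp from the only annotated 5′ end, between vars-1 and the tandem gene oma-2, and in the window of no other gene.

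The peak of ears-2, the mitochondrial glutamyl-tRNA synthetase gene, was next among the mitochondrial genes (IV, 390380 to 390583). Its signal was 406 in the pooled list, 202 in replicate 1 and 210 in replicate 2, at ranks 533, 537 and 528. The summit lay at -8 bp from ears-2 and at -84 bp from the divergent gene uncp-18, and the gap between these genes is 91 bp, so position does not tell the genes apart. With 63.4% G and C, its sequence was the richest of the 14 synthetase peaks.

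The peak of sars-2, for mitochondrial seryl-tRNA synthetase (IV, 4357407 to 4357560), had a pooled signal of 255 (rank 1074), with 86.8 in replicate 1 (rank 1807) and 160 in replicate 2 (rank 796). It stood clearly higher in replicate 2. The summit lay at -163 bp from sars-2 and at -494 bp from the divergent gene W03B1.9.

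For pars-2, mitochondrial prolyl-tRNA synthetase, 2 peaks were counted, both in introns of the gene and placed by internal 5′ ends. The stronger (I, 12489237 to 12489354, signal 221, rank 1293) had 108 in replicate 1 and 107 in replicate 2, with its summit at -391 bp. The weaker (I, 12489786 to 12490121, signal 127) had 55.7 and 75, with its summit at 256 bp downstream of a start. The weaker summit also lay in the window of T27F6.6. From the outermost 5′ end of the gene alone, neither summit of pars-2 fell in the window.

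The other mitochondrial members with a peak were near the lower edge of the IDR list. That of yars-2, for tyrosyl-tRNA synthetase (IV, 4712399 to 4712734), had a signal of 121 (rank 2663), with 62.5 in replicate 1 and 53.5 in replicate 2, and its summit lay in the 5′ UTR at -14 bp from an annotated start. That of aars-1, for alanyl-tRNA synthetase (II, 11464423 to 11464758), had a signal of 99.8 (rank 3373), with 34.8 in replicate 1 (rank 6908) and 63.9 in replicate 2 (rank 2665). The aars-1 peak lay between divergent genes, at -94 bp from aars-1 and -303 bp from rga-1. In replicate 1 alone it would not have been among the 3449 strongest regions.

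Among cytosolic synthetases, the highest signal was counted for rars-1, the arginyl-tRNA synthetase gene. The peak (III, 4918037 to 4918276) had a signal of 450 (rank 460), with 187 in replicate 1 and 271 in replicate 2. It lay at -972 bp from the nearest rars-1 start and at -141 bp from rpb-8, an RNA polymerase subunit gene that ends 65 bp before rars-1 on the same strand. The peak at the rars-1 start itself (III, 4916966 to 4917301) was weak, with a signal of 110 (rank 2969), 61.5 in replicate 1 and 39.9 in replicate 2, and its summit lay in the 5′ UTR at -5 bp. It alone keeps rars-1 among the bound genes when each peak is given to its nearest 5′ end.

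The peak of aars-2, for cytosolic alanyl-tRNA synthetase (I, 3982802 to 3982973), had a signal of 273 (rank 979), with 111 in replicate 1 and 152 in replicate 2. Its summit lay at -269 bp, in the window of no other gene. That of mars-1, for methionyl-tRNA synthetase (IV, 11635622 to 11635957), had a signal of 150 (rank 2059), with 82.0 in replicate 1 and 70.5 in replicate 2, at -303 bp. The mars-1 summit also lay at -858 bp from the divergent gene F58B3.6.

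The members not assigned to 1 compartment each stood higher in replicate 2. The peak of cars-1, for cysteinyl-tRNA synthetase (I, 2629368 to 2629479), had a signal of 154 (rank 2008), with 47.1 in replicate 1 (rank 4186) and 95.6 in replicate 2 (rank 1621). It lay far upstream, at -865 bp, with no other gene's window over it. That of kars-1, for lysyl-tRNA synthetase (II, 7072561 to 7072896), had a signal of 114 (rank 2854), with 36.5 in replicate 1 (rank 6391) and 77.5 in replicate 2 (rank 2122), at -314 bp. Another region in the kars-1 window reached 49.8 in replicate 1. That of gars-1, for glycyl-tRNA synthetase (III, 5162311 to 5162646), had a signal of 99.5 (rank 3381), with 39.4 in replicate 1 (rank 5599) and 57.0 in replicate 2 (rank 3112), in an intron at -202 bp from an internal start. The remaining hars-1 and tars-1, for histidyl- and threonyl-tRNA synthetase, had no IDR peak. At hars-1 the strongest region had a pooled signal of 85.9, with 26.9 in replicate 1 and 61.6 in replicate 2, and lay at -14 bp from the divergent gene T11G6.2. At tars-1 it had 85.1, with 36.4 and 60.2, and lay at -323 bp from tars-1 and at -212 bp from kel-1. In the 3449 strongest regions of replicate 1 none of these 5 genes had a promoter summit, and in those of replicate 2 all 5 did.

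**Figure D2:**
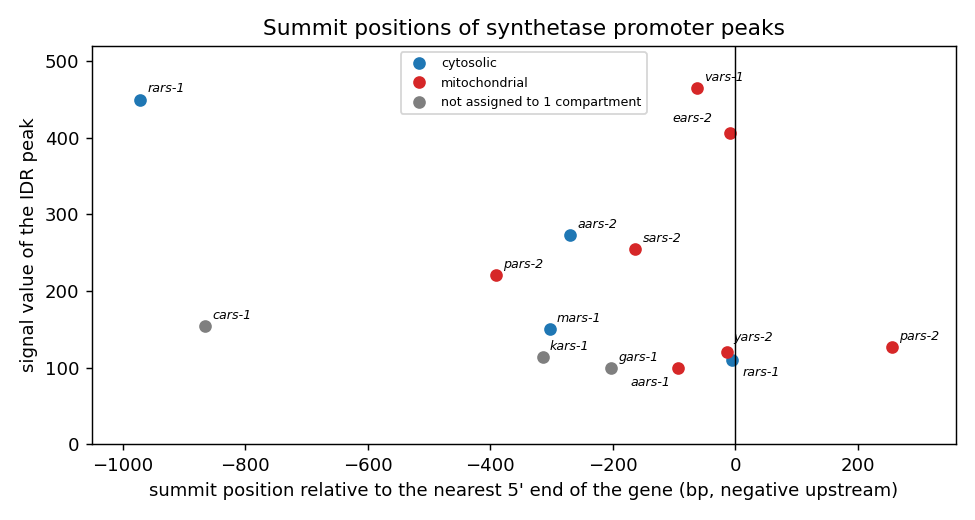
Summit position (bp from the nearest 5′ end of the gene, negative upstream) and pooled signal value of the 14 IDR peaks in synthetase promoter windows, by compartment. The strongest mitochondrial peaks, of vars-1 and ears-2, lay at -63 and -8 bp, and the strongest cytosolic one, counted for rars-1, at -972 bp.

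Of the 14 peaks, 13 had the summit upstream of the nearest 5′ end. By pooled summits 5 lay within 100 bp of it, of which 4 were at mitochondrial genes and 1 at a cytosolic gene. This share was not counted over all promoter peaks. Of the 5, the aars-1 summit lay at -94 bp in the pooled list, but at -152 bp in replicate 1 and -116 bp in replicate 2. The median position was -182 bp, against -180 bp over all 2281 IDR peaks in promoter windows. The quartiles were -311 and -26.2 bp for the synthetase peaks and -345 and -78 bp for all of these. Of the 14, 9 summits were intergenic, a share that was also not counted over all promoter peaks. The windows of other genes held 6 of the 14 summits (42.9%), against 35.1% of all promoter peaks. No summit lay within 200 bp of a noncoding RNA gene, which was not counted over all promoter peaks either.

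The 19 synthetase genes without a promoter peak were not all alike in signal. Just below the weakest IDR peak (98.2), 5 had pooled signals over 80: iars-2 (89.6), qars-1 (86.4), rars-2 (86.0), hars-1 (85.9) and tars-1 (85.1). Just above it stood gars-1 (99.5) and aars-1 (99.8). The iars-2 region, of mitochondrial isoleucyl-tRNA synthetase, reached 41.1 in replicate 1 and 44.2 in replicate 2, at -358 bp and inside the coding sequence of the overlapping gene C25A1.20. For rars-2, mitochondrial arginyl-tRNA synthetase, replicate 1 gave 58.3 (rank 3090) and replicate 2 only 25.4 (rank 11739), at 83 bp inside its coding sequence. For qars-1, cytosolic glutaminyl-tRNA synthetase, the strongest pooled region at -534 bp had 29.9 in replicate 1 and 54.2 in replicate 2. It lay closer to the divergent gene Y41E3.7, at -318 bp. Another region in the qars-1 window, of pooled signal 74.9, had 51.3 in replicate 1 and 29 in replicate 2.

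The other 10 cytosolic genes without a peak spread from near that edge to the weakest regions of the pooled list. The pooled signals were 76.8 for fars-1 (phenylalanine), 71.5 for nars-1 (asparagine), 48.4 for iars-1 (isoleucine), 45.9 for pars-1 (proline) and 43.7 for dars-1 (aspartate). They were 38.5 for wars-1 (tryptophan), 33.3 for yars-1 (tyrosine), 33.1 for sars-1 (serine), 24.6 for ears-1 (glutamate) and 22.3 for lars-1 (leucine). The regions of yars-1, ears-1 and lars-1 had no counterpart in the window in either replicate list. The fars-1 region lay at -911 bp, at -131 bp from rbm-5, and reached 19.1 in replicate 1 and 67.4 in replicate 2. Among the mitochondrial genes, nars-2 (42.3) and fars-2 (36.4) were as low. No region of any signal lay in the windows of dars-2 and lars-2.

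Comparing the genes for the same amino acid in the cytosol and in the mitochondrion gave 11 pairs within the 31 genes. Only the mitochondrial gene had a peak in 4 pairs, only the cytosolic gene in 1, both in 1 and neither in 5. The 4 were glutamate (signal 406 for ears-2, 24.6 for ears-1), serine (255 for sars-2, 33.1 for sars-1), proline (221 for pars-2, 45.9 for pars-1) and tyrosine (121 for yars-2, 33.3 for yars-1). The reverse held for arginine (450 for rars-1, 86.0 for rars-2), where the signal is that of the peak next to rpb-8. For alanine both genes had a peak, with 273 for aars-2 and 99.8 for aars-1. Valine is not among the 11 pairs, because its cytosolic gene is listed as glp-4. The mitochondrial vars-1 had a peak of signal 465, and glp-4 had a region of 93.6 but no peak. The mitochondrial gene had the higher signal in 5 of the 11 pairs, so the pairs showed no uniform direction. In the aspartate and leucine pairs the mitochondrial gene had no region and was counted as the lower. The cytosolic signals there were 43.7 for dars-1 and 22.3 for lars-1, and the lars-1 region was in neither replicate list.

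**Figure D3:**
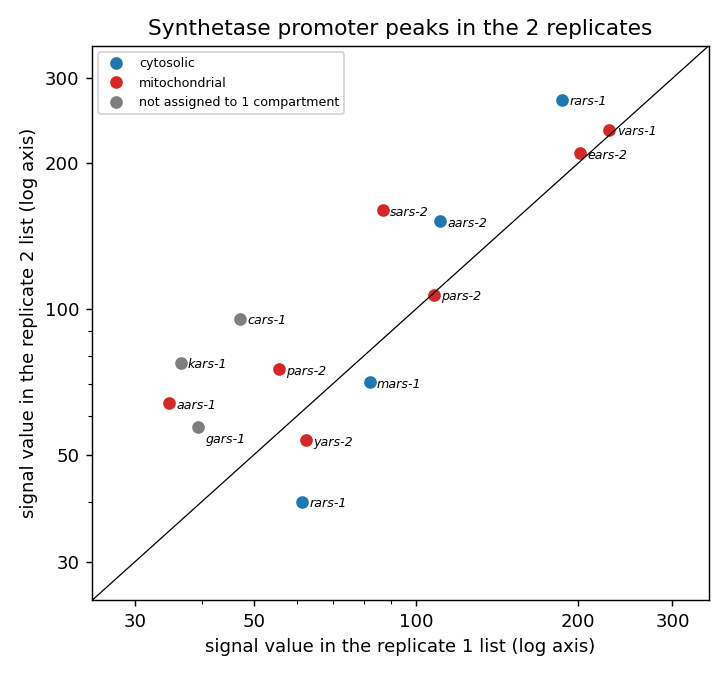
Signal values (log axes) of the 14 synthetase promoter peaks in the replicate 1 and replicate 2 lists, by compartment, with the line of equal values. The points of kars-1, cars-1, sars-2 and aars-1 lie farthest above the line, the weaker rars-1 peak lies below it, and those of vars-1, ears-2 and the stronger pars-2 peak lie on or near it.

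The replicates gave different counts. Among the 3449 strongest regions of each replicate, 9 of 31 synthetase genes (29.0%) had a promoter summit in replicate 1 and 16 (51.6%) in replicate 2, against 13.8% and 14.3% of all genes. In both lists 8 genes had one: aars-2, ears-2, mars-1, pars-2, rars-1, sars-2, vars-1 and yars-2. Of the 12 genes with an IDR peak, aars-1, cars-1, gars-1 and kars-1 were missing in replicate 1 and none in replicate 2. Without an IDR peak, rars-2 entered in replicate 1, and fars-1, hars-1, qars-1 and tars-1 entered in replicate 2. The cytosolic count was 3 in replicate 1 and 5 in replicate 2, and the mitochondrial count was 6 in both. Over the 25 synthetase genes with a region in the window in both replicate lists, the strongest signals had a Spearman's rho of 0.705, and over all 6592 such genes 0.854. The strongest region was taken in each list separately, so the values of a gene can belong to different regions. At kars-1 these lay at -946 bp in replicate 1 and -313 bp in replicate 2. These are descriptions across genes, and both lists were made with the same control file.

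The sequence elements of DREAM were present at some of the peaks. A CHR element lay within 50 bp of the summit at 6 of the 14 synthetase peaks (42.9%, 21.4% to 67.4%). The share was 37.7% of all IDR promoter peaks and 26.3% of the 26151 pooled regions that overlapped no IDR peak. An E2F site lay there at 4 of the 14 (28.6%, 11.7% to 54.6%), against 20.7% and 5.81%. Both elements were found at 3 peaks, those of aars-2, cars-1 and the weaker of pars-2, and neither at 7. At cars-1 there were 4 CHR matches and 1 E2F match, TTGGCGC, centred 5 bp from the summit. At sars-2 the CHR matches were centred 25.5 and 12.5 bp from the summit, and at gars-1 the E2F match was centred 44 bp from it. The peaks of vars-1 and ears-2, among the 3 highest, had no match. Matches are descriptions of letters in these windows.

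Related genes were described from a list of 23 gene names chosen for tRNA charging, delivery and sensing, of which 19 matched the annotation. They were matched by name alone, and the role of each gene, such as arc-1, was not checked. Of these, 12 carried a promoter peak (63.2%, 41.0% to 80.9%), against 14.3% of all genes, with a median signal of 460 against 222. With peaks in the window of 1 gene only, the count was 5 of 19 (26.3%), against 6.85% of all genes. The highest signal, 2670 (1329 in replicate 1 and 1337 in replicate 2), was that of eef-2, the ribosome translocation factor gene, in a peak that also lay in the window of clsp-1. For eef-1A.1, elongation factor 1 alpha, the signal was 1186 (573 in replicate 1 and 621 in replicate 2), in a peak closer to rfc-4. For its paralog eef-1A.2 it was 295 (161 and 139). The exchange subunit genes eef-1G, eef-1B.2 and eef-1B.1 had 759, 563 and 432, and the peaks of eef-1G and eef-1B.1 were shared with the windows of ctf-4 and aco-2. The mitochondrial elongation factor genes tufm-2 and tufm-1 had 200 and 115, and the tufm-2 summit lay closer to exoc-7.

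Among listed genes of the response to uncharged tRNA, the signal was 1239 at gcn-1 (593 in replicate 1 and 656 in replicate 2), whose peak lay in no other gene's window, and 488 at gcn-2, the kinase of the amino acid response (225 and 256), in a peak closer to Y81G3A.1. It was 110 at atf-4, a transcription factor gene of that response (42.2 and 71.6), in a peak shared with another gene's window and outside the 3449 strongest regions of replicate 1. For the enzyme made of FARS-1 and FARS-3 subunits, fars-3 had a peak of signal 214 (98.6 and 107) at -260 bp, while fars-1 had none. The region at glp-4 reached 93.6 (58.2 and 47.7), just below the IDR list. No promoter peak was found at arc-1, hpo-31, tsfm-1, secs-1, xpo-3 and nsun-2.

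**Figure D4:**
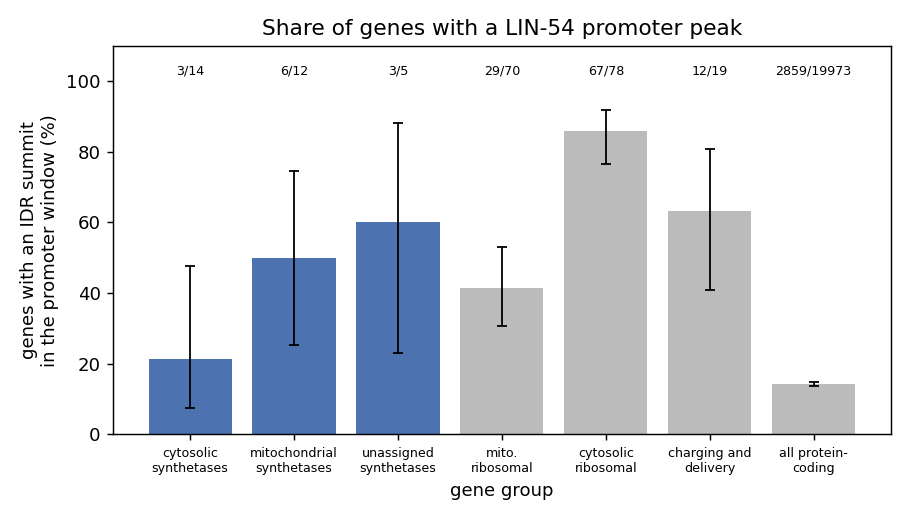
Percent of genes in each group with an IDR summit in the promoter window, with Wilson 95% intervals that cover counting over genes alone and the counts above the bars. The cytosolic synthetases stood at 21.4% and the mitochondrial synthetases at 50%, with overlapping intervals, and all protein-coding genes at 14.3%.

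Beside the ribosomal protein genes, the share of synthetases was nearer to that of the mitochondrial set. Of 70 mitochondrial ribosomal protein genes, 29 had a promoter peak (41.4%, 30.6% to 53.1%), with a median signal of 193. Of 78 cytosolic ribosomal protein genes, 67 had one (85.9%, 76.5% to 91.9%), with a median of 281. The cytosolic synthetases, at 21.4%, lay below the cytosolic ribosomal proteins in count, and all protein-coding genes stood at 14.3%. The intervals cover counting over genes alone. No test of these differences was run.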

How the data were processed

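Region lists were used, 1 per replicate, 1 for the pooled replicates and the optimal IDR list. Per the deposited file descriptions, the authors derived the relaxed lists, meant as IDR input, from ce11 alignments and 1 control file shared by both replicates. No source used here names the aligner, the peak caller or a threshold for IDR. A deposited region carries a signal value, a −log10 q value (not used) and a summit offset. The 3449 IDR peaks equal the 3449 strongest pooled regions.

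Lists were read 1-based with Python 3.11.15, pandas 2.3.3, numpy 2.4.6 and scipy 1.17.1, with matplotlib 3.10.9 for plots. Genes came from Ensembl release 115 (WBcel235) and sequence from RefSeq's genome of that build. A replicate's value at a peak is its strongest region that overlaps at least 50% of the shorter region. Intervals are Wilson 95% intervals over genes or peaks. Window and motif searches were checked on planted examples.

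Compartments were assigned from knowledge of the genes. RefSeq product names gave a compartment for 14 genes: 12 matched, and 2 (cars-1 and tars-1, named cytoplasmic) were left unassigned. Every synthetase gene is named. Of 23 related genes listed, tsfm-2, selb-1, dtd-1 and mtfmt-1 matched no gene name. The gene names, lists and measures were chosen with earlier results of these data known. With 1 group and genes chosen by name, no test was run. Alternatives were other windows, thresholds, replicates, peak assignments and motif distances.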

Additional observations from a re-analysis of the deposited data

How the results depend on the processing

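The count of 12 synthetase genes stayed within 1.5 times of itself under every alternative run except the strongest 1724 peaks. There 6 were left (19.4%, against 8.9% of all genes), all of signal 221 or more. Leaving out either replicate gave 9 to 16 synthetase genes, 3 to 5 cytosolic, 6 to 6 mitochondrial and 12 to 12 related genes. The share of all genes was then 13.8% to 14.3%. Among the related genes, tsfm-1 replaced tufm-1 without replicate 1, and glp-4 replaced atf-4 without replicate 2. Cytosolic genes numbered 5 without replicate 1 (fars-1 and qars-1 entered) and 5 among the strongest 5000 pooled regions, an alternative chosen after the data were seen, where all synthetases numbered 18. With those 5000 regions the share was 58.1% of the synthetases and 17.8% of all genes. Counting only peaks in the window of 1 gene, also chosen after the data were seen, left 8 synthetase genes (25.8%). Of these 3 were mitochondrial, and 5 related genes were left. The share of all genes was then 6.85%. From the outermost 5′ end of each gene alone, pars-2 and gars-1 dropped out, leaving 10 (32.3%, against 13.6% of all genes).

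The median signal of the 14 peaks was 152, and 339 over the 6 in the strongest 1724. Over the peaks each replicate gave among its own strongest 3449 regions it was 75 (17 peaks, without replicate 1) to 86.8 (11 peaks, without replicate 2), on the replicates' own scale. Over the same 14 peaks it was 72.2 in replicate 1 and 86.5 in replicate 2. The median summit position of the 14, -182 bp, ranged over the replicates' own peaks from -293 bp (without replicate 1) to -139 bp. CHR elements within 25 bp lay at 3 peaks, against 6 within 50 bp. With replicate summits, CHR counts were 5 to 5 and E2F counts 3 to 5. These alternative motif counts were not made over all promoter peaks or background regions. Depth is unknown, so no limit on weak binding is given. No paired analysis was possible because there is only 1 group.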

Other observations

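The tRNA genes for an amino acid can be set beside the synthetase genes for it, with the RefSeq annotation of tRNA genes and IDR summits within 200 bp. For the 11 amino acids with a promoter peak at 1 or more of the 31 synthetase genes, 177 of 384 tRNA genes had such a summit (46.1%). For the other 9 amino acids, which include phenylalanine, whose subunit gene fars-3 is not among the 31 and had a peak, 104 of 222 had one (46.8%). Valine, whose mitochondrial synthetase gene had the highest signal, had 15 of 31, and threonine, whose gene had no IDR peak, had 22 of 34. Many tRNA genes share their sequence, so these counts are not of independent genes.

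Upstream neighbours were also counted. The nearest protein-coding gene upstream ran in the opposite direction for 18 of the 31 synthetase genes, of which 7 had a promoter peak, and in the same direction for 13, of which 5 had one. That neighbour overlapped the synthetase gene at fars-1, iars-2 and tars-1. The tars-1 neighbour, kel-1, reached past both ends of the synthetase gene, so it is not upstream of it alone. Over all protein-coding genes, 14.3% had a promoter peak, but the share by direction of the neighbour was not counted.

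The pooled regions that overlapped no IDR peak and had a summit in a synthetase window numbered 44. A CHR element lay within 50 bp of the summit in 8 of them (18.2%), against 26.6% of all such regions in promoter windows. An E2F site lay there in 0 of the 44, against 5.48% of such regions in promoter windows. A count of 0 allows a share of up to 6.82%, taken as 3 counts of 44, and the Wilson upper limit is 8.03%. The median share of G and C around the summits was 41.6% for the 14 synthetase peaks and 45.5% for all IDR promoter peaks.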
